A study of Homo sapiens with 3 samples.

Results

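The regions described here are 1599 peaks of Fra-2 that lie in introns, carry an AP-1 element and have no Fra-1 peak over them. They are 12.3% of the 13003 peaks in the Fra-2 list. They were chosen by 4 conditions on a peak of chromosomes 1 to 22: no base shared with any of the 9998 Fra-1 peaks, a centre over 1 kb from every start of transcription (TSS) annotated for protein-coding or long noncoding genes, a centre in an intron of a protein-coding gene, and the 7 bases TGAGTCA, which read TGACTCA on the other strand, within 100 bp of the centre. Peaks within 1 Mb of a run of at least 1 Mb of unknown bases were dropped. The absence of a Fra-1 peak, the element and the place are thus conditions of choice and not results. For short, they are called intronic Fra-2-only peaks below.

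The study mapped where Fra-1 and Fra-2 sit on the genome of MDA-MB-231 cells by chromatin immunoprecipitation and sequencing (ChIP-seq). MDA-MB-231 is an established human cell line from a triple-negative breast cancer, classed as basal B. All cells were the same unmodified line, grown without any drug in medium with 10% fetal calf serum, penicillin and streptomycin at 37°C, and the groups differ only in the antibody: Fra-1, Fra-2, or none for the input DNA, which was not analysed here. The labels name 2 independent replicates of each, but 1 list per antibody was analysed, so no value has a spread between replicates. Peak positions carry no expression values, so the labelled cell type was not checked against marker genes. A peak missing from the Fra-1 list may still hold Fra-1 signal under the authors' threshold, and the depth behind both lists is unknown. Intervals are 95% exact binomial (Clopper-Pearson) for shares and log-normal for ratios. They cover counting error only and, like the Fisher exact tests, treat neighbouring peaks as independent.

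Fra-2 is the product of FOSL2 and Fra-1 that of FOSL1. Both are basic leucine zipper proteins of the Fos family that pair poorly with themselves and bind DNA as dimers with Jun proteins, the AP-1 complex, at the palindrome-like element TGAGTCA. The bases beside this element touch the basic regions of the dimer and are known to modify how tightly it holds. In breast cancer cells of the basal type, AP-1 sites are mostly found at enhancers away from promoters, many of them in introns, often beside elements of TEAD factors.

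The sequences at the 8 peaks of at least 350 bp, the widest intronic Fra-2-only peaks outside repeat-like windows, show the element with its neighbours. Each is read from the GRCh37 genome (the assembly behind hg19), 5′ to 3′ on the strand that reads TGAGTCA, with the element nearest the peak centre and 20 bases to each side. Capitals mark the AP-1 element.
SMCO4 (chr11:93275279-93275325, plus strand): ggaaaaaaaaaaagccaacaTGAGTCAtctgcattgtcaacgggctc
TFEB (chr6:41680980-41681026, plus strand): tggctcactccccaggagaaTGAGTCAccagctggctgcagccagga
GCOM1 (chr15:57900049-57900095, plus strand): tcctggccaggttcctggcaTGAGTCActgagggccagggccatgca
CHMP4B (chr20:32400175-32400221, minus strand): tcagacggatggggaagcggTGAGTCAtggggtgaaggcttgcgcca
SLC9A4 (chr2:103130747-103130793, minus strand): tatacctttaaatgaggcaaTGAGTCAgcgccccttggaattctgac
ABTB2 (chr11:34265375-34265421, minus strand): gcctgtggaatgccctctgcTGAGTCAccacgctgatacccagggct
CHST11 (chr12:104998062-104998108, plus strand): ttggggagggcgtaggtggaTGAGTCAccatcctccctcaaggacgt
SULT2B1 (chr19:49071766-49071812, plus strand): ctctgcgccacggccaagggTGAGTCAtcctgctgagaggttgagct
In 6 of these 8 a purine (a or g) stands directly before the element and a pyrimidine (c or t) directly after it. In SLC9A4 the base after the element is a purine, and in ABTB2 the base before it is a pyrimidine.

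For comparison, the 4 widest intronic peaks that Fra-2 shares with Fra-1 are given in the same way, with fewer bases in TACC2, where the element lies near the edge of the window.
MYPN (chr10:69896051-69896097, minus strand): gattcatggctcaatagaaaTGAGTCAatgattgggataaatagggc
ARSI (chr5:149696890-149696936, plus strand): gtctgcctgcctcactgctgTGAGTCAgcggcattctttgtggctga
PFKP (chr10:3137775-3137821, plus strand): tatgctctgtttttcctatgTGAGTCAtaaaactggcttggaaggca
TACC2 (chr10:123900765-123900801, plus strand): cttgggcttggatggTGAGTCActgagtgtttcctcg
Of these, 2 have the purine and the pyrimidine. The element of MYPN is followed by a, which is the rarest base at that place in intronic Fra-2-only peaks, and that of ARSI is followed by g.

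CMIP, the gene with most intronic Fra-2-only peaks, holds 6 of them on chromosome 16. They are shown with 10 bases to each side, because they let a reader compare sites within a single gene.
CMIP (chr16:81519535-81519561, plus strand): cttccccgaaTGAGTCActcaggcgct
CMIP (chr16:81557146-81557172, minus strand): tcagactggaTGAGTCAgttgcttggc
CMIP (chr16:81594831-81594857, plus strand): attgcaggcgTGAGTCAgtgtgcctgg
CMIP (chr16:81617653-81617679, minus strand): ttgaatctagTGAGTCAccagggtcag
CMIP (chr16:81620203-81620229, minus strand): ttgaaggaggTGAGTCAtaaaaactga
CMIP (chr16:81666644-81666670, plus strand): atgaggctgaTGAGTCAtggagccata
The purine and the pyrimidine occur together in 4 of the 6, and the other two have g after the element.

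The bases beside the element differed between these peaks and those shared with Fra-1. The rule required the 7 bases of the element but not those beside it, which were compared among peaks with a single element so that each gave 1 flank. Of 1441 intronic Fra-2-only peaks, 1008 (69.95%, 67.5 to 72.3) had a purine before and a pyrimidine after the element. Intronic shared peaks, which met the same rule except that a Fra-1 peak lay over them, had it in 759 of 1459 (52.0%, 49.4 to 54.6). The ratio of the shares was 1.34 (1.27 to 1.43, Fisher exact test, two-sided here and throughout, with an adjusted p = 1.89e-22 over the 17 comparisons of peak classes). Intronic Fra-1-only peaks had it in 69 of 247 (27.9%, 22.4 to 34.0), so the share in Fra-2-only peaks was 2.50 times as high (2.04 to 3.07, Fisher exact test, adjusted p = 3.93e-34). This grouping of bases was chosen after the flanks had been seen.

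The same pattern stood in intergenic Fra-2-only peaks, which met every condition but the intron. They had it in 690 of 1007 (68.5%, 65.6 to 71.4), a ratio of 1.02 (0.967 to 1.08, Fisher exact test, adjusted p = 0.588). Of 161422 AP-1 elements in introns outside all peaks, 24.5% had it. Elements with neither a purine before nor a pyrimidine after were 1.94% of intronic Fra-2-only peaks, 6.03% of shared peaks, 17.4% of Fra-1-only peaks and 26.9% of elements outside peaks.

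**Figure D1:**
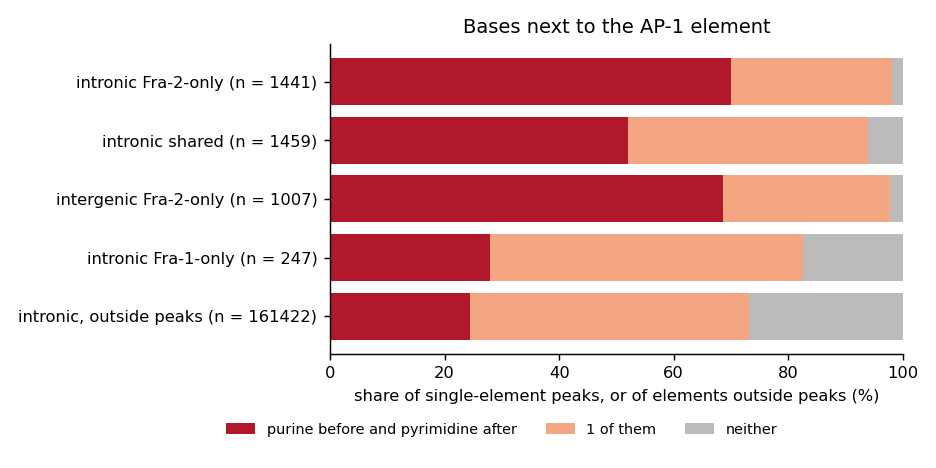
Bases directly beside the AP-1 element. Each bar splits the peaks of a class with a single element, or the intronic elements outside peaks, by whether a purine precedes and a pyrimidine follows it (axis in percent). The dark share is 69.95% in intronic and 68.5% in intergenic Fra-2-only peaks, 52.0% in shared, 27.9% in Fra-1-only peaks and 24.5% outside peaks.

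Base by base, 12 of 32 tests (4 bases at 4 places to each side; 37.5%) separated intronic Fra-2-only from shared peaks at an adjusted p under 0.05. Before the element, A stood in 48.8% against 38.0% (Fisher exact test, adjusted p = 9.79e-08), while C stood in 15.5% against 24.3% (Fisher exact test, adjusted p = 9.79e-08) and T in 1.94% against 5.21% (Fisher exact test, adjusted p = 1.22e-05). After the element, T stood in 46.1% against 38.7% (Fisher exact test, adjusted p = 0.000224), G in 13.4% against 20.6% (Fisher exact test, adjusted p = 2.74e-06) and A in 1.11% against 3.84% (Fisher exact test, adjusted p = 1.22e-05). Bases further out differed too. At the second base after the element C was in 40.9% against 34.5% and G in 12.3% against 18.1% (Fisher exact test, adjusted p = 0.00156 and 7.20e-05). G was also more frequent in Fra-2-only peaks at the second, the third and the fourth base before the element, with 34.2%, 41.3% and 37.0% against 29.9%, 34.0% and 30.8%, and less frequent at the fourth base after it, with 19.1% against 22.96% (Fisher exact test, adjusted p = 0.0362, 0.000226, 0.00147 and 0.0312).

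Against the elements outside peaks, 27 of 32 tests (84.4%) passed. Large gaps stood directly beside the element, where A followed it in 1.11% of intronic Fra-2-only peaks and in 24.3% of elements outside peaks (Fisher exact test, adjusted p = 7.36e-143), and T preceded it in 1.94% and 22.9% (Fisher exact test, adjusted p = 6.24e-117). A T before or an A after occurred in 44 of the 1441 peaks (3.05%, 2.23 to 4.08), in 8.70% of shared peaks, 4.17% of intergenic Fra-2-only peaks, 24.3% of Fra-1-only peaks and 41.8% of elements outside peaks.

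As 9 bases, the symmetrical ATGAGTCAT was the most frequent form, in 332 of 1441 intronic Fra-2-only peaks (23.04%). ATGAGTCAC followed with 273 (18.9%), then GTGAGTCAT with 204 (14.2%) and GTGAGTCAC with 199 (13.8%). In shared peaks the same 4 forms made up 14.3%, 13.2%, 12.5% and 11.9%. ATGAGTCAT stood in 6.48% of Fra-1-only peaks and in 5.66% of elements outside peaks. The mirror form TTGAGTCAA was at none of the 1441.

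Width moved with these shares, and wide peaks are shared more often in these lists, so width is given as a description. Of the intronic Fra-2-only peaks, 621 were 100 bp wide, 506 were 150 bp, 308 were 200 bp, 129 were 250 bp and 35 were wider, up to 450 bp. Their median was 150 bp and that of shared peaks 200 bp. A width of at least 200 bp was reached by 29.5% of them, by 70.9% of shared peaks and by 29.8% of intergenic Fra-2-only peaks, whose share was the only one tested (ratio 0.990, 0.881 to 1.11, Fisher exact test, adjusted p = 0.941). Added up, the intronic Fra-2-only peaks covered 243.0 kb and the shared ones 424.55 kb.

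At every width, the purine and pyrimidine stood more often beside the element in Fra-2-only than in shared intronic peaks. The shares were 65.3% against 41.2% at 100 bp, 69.1% against 43.4% at 150 bp, 78.5% against 58.5% at 200 bp, and 75% against 55% from 250 bp on. The intervals of the classes did not overlap at any of these widths.

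**Figure D2:**
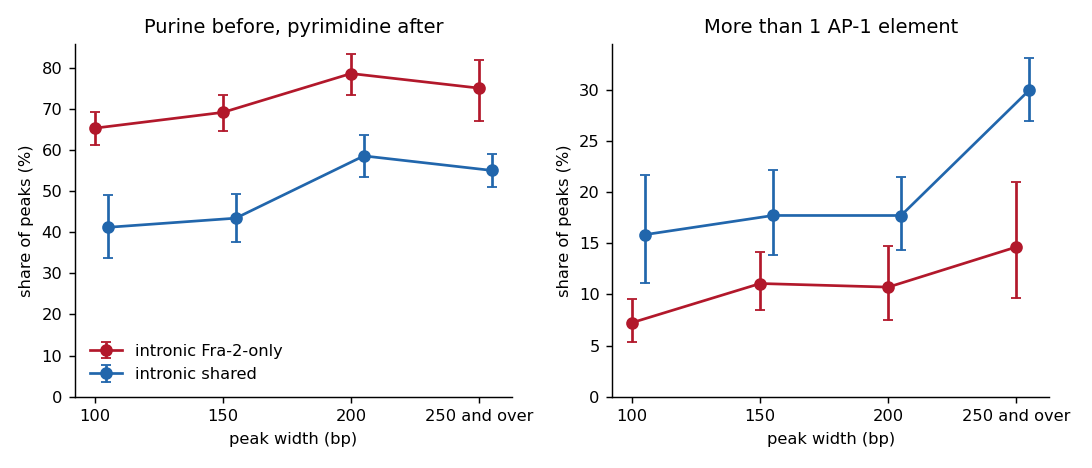
Flank and number of elements by peak width. The left panel gives the share of single-element peaks with a purine before and a pyrimidine after the element, the right panel the share of all peaks with more than 1 element (percent, bars are 95% exact binomial intervals). Intronic Fra-2-only peaks lie above shared ones on the left (65.3% against 41.2% at 100 bp) and below them on the right (14.6% against 29.9% from 250 bp on).

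Intronic Fra-2-only peaks held more than 1 AP-1 element less often than shared and Fra-1-only intronic peaks. A second element was found in 158 of 1599 (9.88%, 8.46 to 11.4) and in 441 of 1900 shared intronic peaks (23.2%, 21.3 to 25.2), a ratio of 0.426 (0.359 to 0.504, Fisher exact test, adjusted p = 2.21e-25). Against Fra-1-only peaks, of which 48 of 295 (16.3%, 12.2 to 21.0) had several, the ratio was 0.607 (0.451 to 0.818, Fisher exact test, adjusted p = 0.00427), and this call was lost among peaks of 150 bp and among those of at least 200 bp. Intergenic Fra-2-only peaks had several in 137 of 1144 (11.98%, 10.2 to 14.0), an interval that overlaps that of the intronic ones, and this difference was not tested. By width, the shares were 7.25% against 15.8% of shared peaks at 100 bp, 11.1% against 17.7% at 150 bp, 10.7% against 17.7% at 200 bp and 14.6% against 29.9% from 250 bp on. Exactly 2 elements stood in 154 peaks and 3 in 4 peaks, while shared peaks reached 5.

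ZC3HAV1, which encodes a zinc finger protein that acts against viral RNA, hosts the widest of those with 3 elements, a peak of 200 bp. Its whole window, 100 bp to each side of the centre, is shown, on the plus strand, because a pair of its elements forms a repeated unit.
ZC3HAV1 (chr7:138803001-138803201, plus strand): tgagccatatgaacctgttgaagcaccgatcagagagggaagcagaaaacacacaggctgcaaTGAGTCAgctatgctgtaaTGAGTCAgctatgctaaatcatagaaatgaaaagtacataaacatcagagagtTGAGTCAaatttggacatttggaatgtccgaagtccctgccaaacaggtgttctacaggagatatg
The first pair of elements is followed by the same bases, and the remaining one lies further on.

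The rule admitted only elements within 100 bp of the centre, in every class compared. The place of the element within this limit is therefore given as a description. Among peaks with 1 element, its middle was a median of 22 bp from the peak centre, against 21 bp in shared and 21 bp in intergenic Fra-2-only peaks. It was within 25 bp in 56.9% (54.3 to 59.5), against 57.6% (55.1 to 60.2) of shared peaks. Peak edges fall on a grid of 50 bp, so finer placement cannot be read. The strand on which the element reads TGAGTCA matched the strand of the host gene in 742 of 1441 (51.5%), against 51.7% of shared peaks (ratio 0.996, 0.929 to 1.07, Fisher exact test, adjusted p = 0.941).

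**Figure D3:**
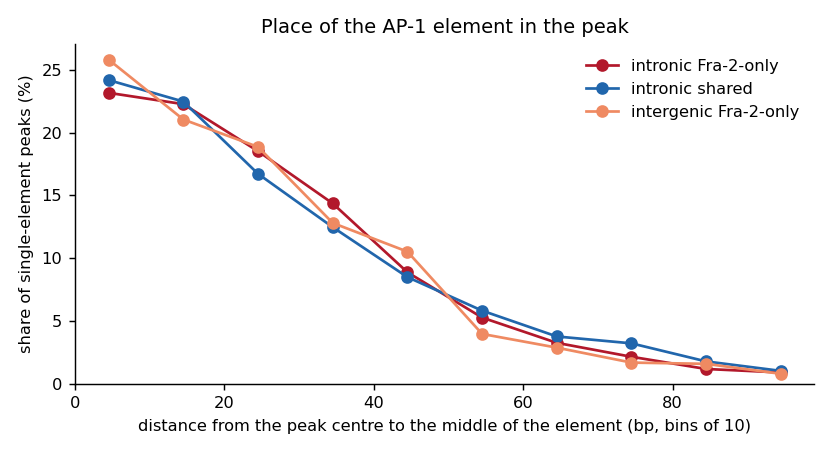
Distance from the peak centre to the middle of the AP-1 element in peaks with a single element, in bins of 10 bp (x axis, bp), as a share of the peaks of each class (y axis, percent). The lines fall together from 23.2% and 24.2% in the first bin of intronic Fra-2-only and shared peaks.

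By position, few peaks lay close to a limit of these conditions. How near a Fra-1 signal came to being called cannot be read from the lists. Of 13003 Fra-2 peaks, 12695 were on chromosomes 1 to 22, 11583 remained after 1112 near large gaps were dropped, and 4703 of these had no Fra-1 overlap. Of those, 4124 were over 1 kb from a TSS, 1979 were intronic and 1599 (80.8% of the intronic) had the element. A Fra-1 peak touched 1 of them without sharing a base, and 49 (3.06%) had one within 500 bp. On the other side, the smallest overlap counted as shared was 50 bp, found in 10 peaks. The middle of the nearest element was over 80 bp from the centre in 26 peaks taken in, at most 97 bp, and within the next 20 bp in 26 of the 380 peaks left out for want of one. A TSS stood within 200 bp above the limit of 1 kb for 28 peaks taken in, and within 200 bp below it for 28 otherwise similar peaks.

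Few copies of the element lay in these peaks. Introns that met the same position rule held 166176 copies of the element, of which 1757 (1.06%) were in these peaks and 1.44% in shared peaks.

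Of 14 other consensus elements sought on both strands in the window reaching 100 bp to each side of the centre, 1 (7.14%) differed from shared intronic peaks at an adjusted p under 0.05. This was the TEAD element, GGAATGC or GGAATGT, bound by the partners of YAP and TAZ at the end of the Hippo pathway. It stood in 123 of 1599 intronic Fra-2-only peaks (7.69%, 6.43 to 9.11) and in 208 of 1900 shared peaks (10.9%, 9.58 to 12.4), a ratio of 0.703 (0.568 to 0.869, Fisher exact test, adjusted p = 0.0160). In 11 other settings the ratio was 0.633 to 0.750, and the call was lost in 4: over 5 kb from a TSS (adjusted p = 0.223), at 150 bp (0.328), from 200 bp on (0.436) and in windows of 40 to 55% GC (0.0612, all by Fisher exact test). Intronic Fra-1-only peaks had it in 41 of 295 (13.9%, 10.2 to 18.4), and the ratio to them was 0.553 (0.398 to 0.771, Fisher exact test, adjusted p = 0.0139), again 1 call of 14 (7.14%), which was also lost in 4 settings, with ratios of 0.577 to 0.748. Windows of the same length around intronic elements outside peaks held it in 4.70%, so that intronic Fra-2-only peaks lay between those and the shared peaks. The difference from elements outside peaks was not tested.

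FOXA elements (TATTTAC or TGTTTAC), read by pioneer factors, were in 5.94% against 7.84% of shared peaks (Fisher exact test, adjusted p = 0.131). MAF elements (TGCTGAC, a part of the full site) were in 5.13% against 7.16% (Fisher exact test, adjusted p = 0.0976). The latter can lie on the AP-1 element itself, as it did in 31 of 82 intronic Fra-2-only and 54 of 136 shared peaks that held it. The E-box CAGGTG of ZEB and SNAIL repressors was the most frequent, in 12.4% against 13.6% of shared peaks and 17.7% of windows outside peaks. C/EBP elements (TTGCNNAA) were in 10.5% against 9.26%, RUNX elements (AACCACA) in 5.75% against 7.21%, NF-kB elements in 3.81% against 4.53% and GATA elements (AGATAAG) in 2.75% against 2.47%. SP/KLF elements (GGGGCGG) were in 2.38% against 2.16%, CArG boxes of SRF in 1.001% against 1.32% and the CTCF core in 0.938% against 0.526%. STAT elements (TTCCNGGAA) were in 0.563% against 0.684%, CRE (TGACGTCA) in 0.188% against 0.105% and ETS elements (CCGGAAGT) in 0.125% against 0.421%. None of the elements from FOXA to ETS passed against shared peaks, although FOXA and MAF elements did with 1 peak per 5 kb. In the windows outside peaks RUNX, NF-kB, SP/KLF and the CTCF core were in 3.27%, 2.61%, 0.706% and 0.198%, and C/EBP, GATA, STAT, CRE, ETS, CArG, FOXA and MAF elements in 10.0%, 2.74%, 0.489%, 0.0688%, 0.0904%, 1.10%, 6.58% and 3.82%. These windows are centred on the element and the others on the peak.

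Against intergenic Fra-2-only peaks, the Fisher exact test called 0 of 14 elements (0%), and 0 had an unadjusted p under 0.05. The lowest adjusted p was 0.953 (Fisher exact test). SP/KLF elements, in 2.38% of intronic Fra-2-only and 1 Fra-1-only peak (0.339%), did not pass either (Fisher exact test, adjusted p = 0.159).

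**Figure D4:**
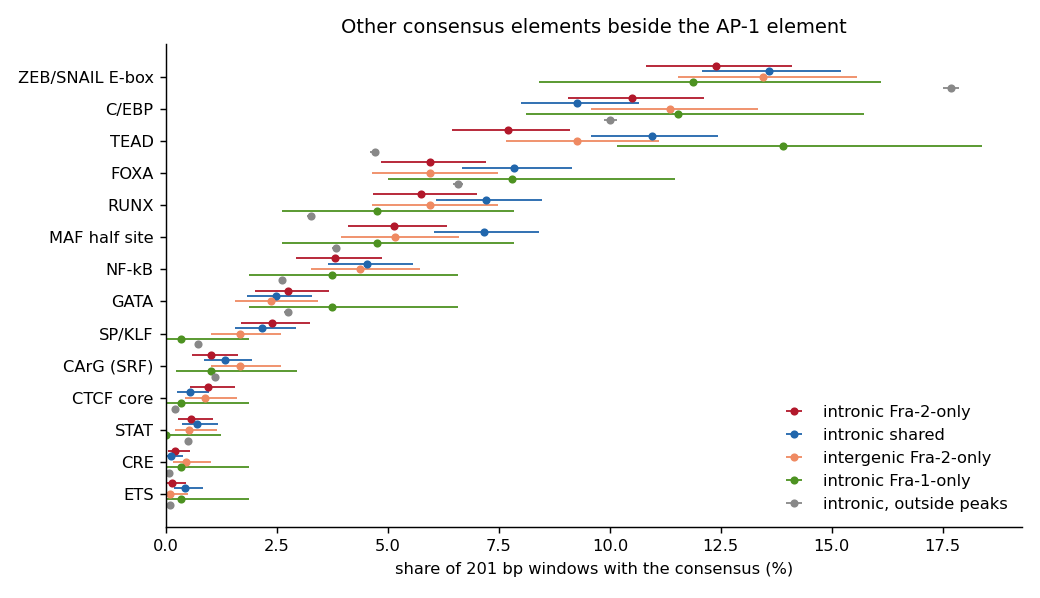
Share of windows (100 bp to each side of the centre) with each of 14 consensus elements (x axis, percent, bars are 95% exact binomial intervals), by class of peak and in windows around intronic AP-1 elements outside peaks. TEAD elements are in 7.69% of intronic Fra-2-only, 10.9% of shared and 13.9% of Fra-1-only peaks.

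GC content at the window was at least 50% in 651 of 1599 (40.7%, 38.3 to 43.2), with a median of 47.8%. Shared intronic peaks had 38.1% at this level (Fisher exact test, adjusted p = 0.170) and intergenic ones without Fra-1 37.1% (Fisher exact test, adjusted p = 0.0968). At 150 bp the difference from shared peaks was 8.08 percentage points (Fisher exact test, adjusted p = 0.0471). From 200 bp on it was 9.95 points (Fisher exact test, adjusted p = 0.000844). Peaks of 100 bp were not tested alone. Intronic Fra-1-only peaks had 20.7%, and the ratio of the Fra-2-only share to theirs was 1.97 (1.56 to 2.48, Fisher exact test, adjusted p = 7.10e-11). What part GC content has in the differences of other elements was not tested beyond the setting with windows of 40 to 55% GC, in which no other element passed against shared or Fra-1-only peaks.

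Some of the elements sit in copied sequence. In 85 of 1599 (5.32%, 4.27 to 6.53) the 31 bases around an element stood at more than 1 place on chromosomes 1 to 22, against 43 shared intronic peaks (2.26%, 1.64 to 3.04), a ratio of 2.35 (1.64 to 3.37, Fisher exact test, adjusted p = 5.52e-06). Intergenic Fra-2-only peaks had 5.86% (ratio 0.908, 0.665 to 1.24, Fisher exact test, adjusted p = 0.673) and elements outside peaks 9.86% (ratio 0.539, 0.438 to 0.663, Fisher exact test, adjusted p = 2.13e-10). From 2 to 9 copies were found for 53 peaks, and 10 or more for the rest. A stretch known from Alu repeats, the short mobile elements that fill human introns, stood beside the element in 71 intronic Fra-2-only peaks (4.44%), in 23 shared peaks (1.21%) and at 2.60% of elements outside peaks, as a description. Whether reads that map to several places were kept is not given in the sources used here. Without peaks whose 31 bases stood at more than 1 place, the flank difference from shared peaks kept 11 of its 12 calls. That setting did not remove all Alu sequence. Of the 71 intronic Fra-2-only peaks with the Alu stretch, 51 were among the 85 left out.

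Within genes, intronic Fra-2-only peaks were counted by the order of their intron. These counts were not set beside the bases or elements in introns of each order. Intron 1 held 514 (32.1%), intron 2 held 286, intron 3 held 164, introns 4 and 5 held 107 and 82, and later introns 446. Shared peaks had 31.8% in intron 1 (ratio 1.01, 0.916 to 1.11, Fisher exact test, adjusted p = 0.941). The median intron was 27.7 kb long and the median distance to the nearest TSS of the host gene was 21.4 kb, from 1.005 to 1334 kb. A host TSS lay within 10 kb of 512 (32.02%, 29.7 to 34.4), against 518 of 1900 shared peaks (27.3%, 25.3 to 29.3), a ratio of 1.17 (1.06 to 1.30, Fisher exact test, adjusted p = 0.00427). Among peaks of 150 bp that difference was 0.501 percentage points and did not pass. Of Fra-1-only peaks 23.1% were as near (ratio 1.39, 1.11 to 1.73, Fisher exact test, adjusted p = 0.00427), a call lost in 3 settings. An exon was within 200 bp of 78 peaks (4.88%), and 206 were over 100 kb from every TSS of their host.

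Neighbouring shared peaks were counted with or without an element. A shared peak stood within 50 kb of 665 intronic Fra-2-only peaks (41.6%, 39.2 to 44.05) and of 43.4% of intergenic ones (ratio 0.959, 0.878 to 1.05, Fisher exact test, adjusted p = 0.521). The nearest was a median of 75.55 kb away, and the nearest Fra-1 peak of any kind 56.85 kb. A Fra-1 peak lay within 10 kb of 351. Of shared intronic peaks 50.6% had another shared peak within 50 kb, and of intronic Fra-1-only peaks 37.6% had a shared one. The difference from either class was not tested.

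Host genes numbered 1314 of the 19229 protein-coding genes of chromosomes 1 to 22 (6.83%). A single peak lay in 1062, a pair in 191 and 3 or more in 61, and 46 peaks were in more than 1 gene and were counted for the longest transcript. A shared intronic peak was also present in 415 hosts (31.6%), while 694 (52.8%) had no Fra-1 peak between their ends. Neither share is set beside that of all genes or of genes of like length, so neither can be called high or low. For 851 peaks (53.2%) the gene held another peak of this kind or a shared intronic one. Long genes were hosts more often, which was not set beside the intron bases or AP-1 elements they hold. The share was 0.470% of genes under 10 kb, 3.70% from 10 to 50 kb, 9.08% from 50 to 100 kb, 15.9% from 100 to 200 kb and 27.8% of longer genes. The median host was 116 kb long, against 27.6 kb for all genes.

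The 12 hosts with most peaks were all over 100 kb long. The shared peaks of a gene are here all those within its ends, with or without an element. CMIP, which encodes a signalling adaptor, spans 267 kb and held 6, with widths of 100, 150, 150, 200, 100 and 250 bp from the start of the gene on. The first 5 lie in its intron 1 and the last in intron 3. CMIP also held 5 Fra-1 peaks and 12 Fra-2 peaks in all, of which 4 were shared, and the nearest Fra-1 peak to the 6 was 7.15 to 55.3 kb away. SLC25A21, the gene of a mitochondrial carrier of oxodicarboxylates, held 5 and no shared peak over its 495 kb, and the 2 Fra-1 peaks within it were at other places. ATXN1, the gene of ataxin-1, held 5, of which 4 lie in its intron 2, beside 5 shared peaks. RUNX1, the gene of a transcription factor of blood formation, held 5 in introns 6, 9 and 11 of its longest transcript, and 10 shared peaks. EXT1, whose product polymerises heparan sulfate, held 5 beside 9 shared peaks. Shared intronic peaks that met the same rule, as compared above, numbered 2 in CMIP, 2 in ATXN1, 5 in RUNX1 and 3 in EXT1.

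**Figure D5:**
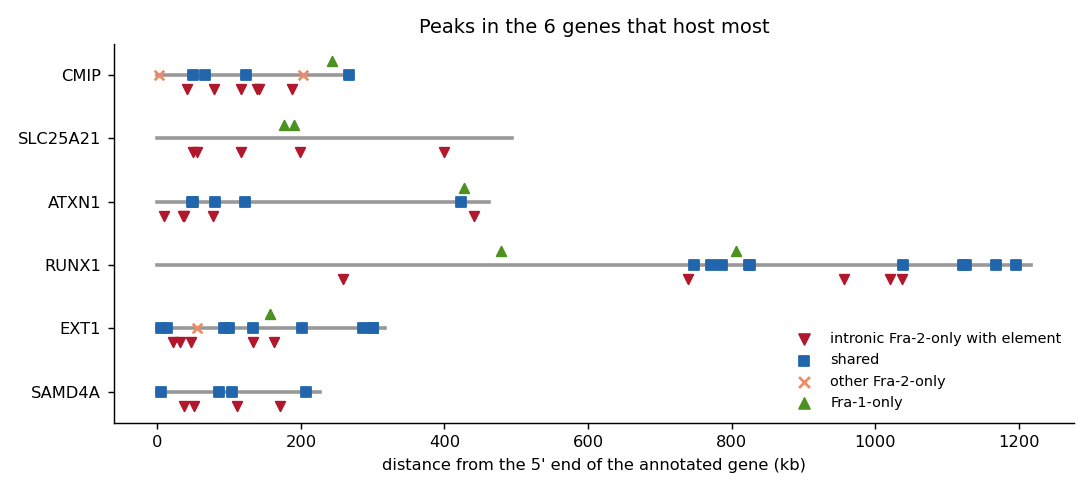
Peaks along the 6 genes that host most intronic Fra-2-only peaks (x axis, kb from the 5′ end of the gene; grey lines are the genes). Triangles pointing down are intronic Fra-2-only peaks with an element. Squares are all shared peaks, with or without an element, crosses other Fra-2-only peaks and triangles pointing up Fra-1-only peaks. SLC25A21 has 5 of the first kind and no square, and RUNX1 has 5 beside 10 squares.

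SAMD4A, which encodes an RNA-binding repressor of translation, held 4, one of 300 bp with 2 elements. It also held 4 shared peaks, of which 1 was intronic and met the same rule. The other hosts of 4 were LRRC8D, a subunit gene of volume-regulated anion channels, NT5C2, a cytosolic nucleotidase gene, BABAM2, a subunit gene of a BRCA1 complex, AGAP1, an Arf GTPase regulator, HIVEP3, a zinc finger factor, and ATP2B2, a calcium pump of the plasma membrane. ATP2B2 had no Fra-1 peak within its 384 kb, and the nearest Fra-1 peak to its 4 peaks was 151.9 to 351.9 kb away. LRRC8D had its 4 in intron 2, with a Fra-1 peak 0.05 kb from the one of 150 bp nearest to the start of the gene. MAML2, a coactivator gene of Notch signalling, also held 4 with no Fra-1 peak, and was named after its values were seen.

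The widest peak, of 450 bp, lies in intron 1 of SMCO4, the gene of a small membrane protein, 1.245 kb from a TSS and 486.7 kb from the nearest Fra-1 peak. It held a single element and none of the 14 other consensus elements. Of 400 bp were those in TFEB, the factor of lysosome formation (intron 1, 7.37 kb from a TSS), GCOM1, a locus whose transcripts join neighbouring genes (intron 2, 15.77 kb), and CHMP4B, a subunit gene of the ESCRT machinery (intron 1, 1.047 kb). The window of TFEB also held an NF-kB element, the CAGGTG E-box and a MAF element. Of 350 bp were those in SLC9A4, a sodium and proton exchanger (intron 8), ABTB2 (intron 1, 114 kb from a TSS, with TEAD and NF-kB elements), CHST11, a sulfotransferase of chondroitin (intron 2), and SULT2B1, a sulfotransferase of cholesterol (intron 1). The peak of CHST11 had a shared peak 0.30 kb away, while the nearest to that of SLC9A4 was 255.4 kb away. Peaks of 300 bp lay in LRRC8D, in WNT9A, a Wnt ligand gene (intron 1, 1.532 kb), in IRF2BP2, a corepressor gene with an intron of only 0.594 kb, and in LIPH, a lipase that makes lysophosphatidic acid (intron 1, 3.195 kb).

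In 12 lists of genes by function, hosts were counted beside the share of all genes (6.83%) and, as gene length differs, beside the share of all genes in the same classes of length. The longest class took all genes over 200 kb together, so differences of length within it were not accounted for. No test was made of these lists. The median number of intronic Fra-2-only peaks per gene was 0 over all genes and in each of these lists. Of 24 genes of cell junctions and polarity 10 were hosts (41.7% against 17.9%), with 3 peaks each in CTNNA1, the gene of alpha-catenin, MAGI1, a junction scaffold, and TJP1, the gene of ZO-1, and 1 of 200 bp in CDH3, the gene of P-cadherin. A shared intronic peak lay in 7 of these 24 genes.

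Lists of adhesion and of growth signals had between 16.7% and 26.1% hosts. Of 23 genes of focal adhesions 6 were hosts (26.1% against 14.9%), with 2 peaks each in TES, ACTN4, LPP and PTK2. Of 24 integrins and matrix receptors 6 were hosts (25% against 11.8%), among them ITGA6, ITGA3 and SDC4 with 1 each and ITGA11 with 2. The PI3K, AKT and mTOR list had 6 of 24 (25% against 13.5%), with 1 each in RPTOR, DEPTOR and PHLPP1 among others. The Hippo list had 5 of 23 (21.7% against 14.6%), with 1 each in VGLL4, STK3, STK4, TAOK3 and WWTR1, the gene of TAZ. The EGFR, RAS and MAPK list had 4 of 23 (17.4% against 13.1%), with 1 each in ERBB4, MAPK8, MAP2K2 and NF1. The TGF-beta list had 4 of 24 (16.7% against 12.2%), with 3 in the coreceptor gene TGFBR3 and 1 each in LTBP1, SMAD3 and SMAD6. Receptor tyrosine kinases had 4 of 24 (16.7% against 15.7%), with 1 each in EPHA4, FGFR1, IGF1R and NTRK2. Shared intronic peaks lay in more genes of several of these lists. They were in 13 genes of the focal adhesion list, 8 of integrins, 8 of Hippo, 7 of TGF-beta and 7 of receptor tyrosine kinases. In the other lists of this paragraph they were in fewer, 3 genes for PI3K and 2 for EGFR.

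Chromatin regulators had 2 of 23 (8.70% against 17.8%), with 3 peaks in HDAC4 and 1 in NSD1. A shared intronic peak lay in 4 of the 23. None of the 24 genes of the AP-1 and ATF family was a host (0% against 5.41%), although 6 of them had a shared intronic peak, and their median length was 12.9 kb. Neuronal genes, as genes of another cell type, had 5 of 23 (21.7% against 20.4%), with 1 peak each in SYN2, SYT1, DLGAP1 and GRIN2A among others, and genes of blood cells 1 of 23 (4.35% against 6.28%), which was BLK. A shared intronic peak lay in 5 of the neuronal genes and 1 of the blood cell genes.

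Along the genome, there were 1.52 intronic Fra-2-only peaks per Mb of intron that met the position rule, and 1.81 shared ones. The density was highest on chromosome 19 with 3.06, followed by 2.61 on chromosome 20 and 2.52 on chromosome 17. It was lowest on chromosome 4 with 0.586, on chromosome 13 with 0.753 and on chromosome 7 with 0.826. Of both kinds together, 45.7% were Fra-2-only, from 33.6% on chromosome 4 to 57.1% on chromosome 22. Copy number, which can differ between chromosomes of this line, was not examined.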

How the data were processed

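The series lists 3 samples: ChIP-seq with antibodies to Fra-1 and Fra-2, and input DNA. The deposited values are of another kind than counts: each line gives where a peak begins and where it ends, in steps of 50 bp, as called by the authors, and there is no height, score or p-value. Bowtie2 and hg19 are named in the submitters' processing notes. Which caller and threshold were applied, whether the input entered and how replicates were handled is not given in the sources used here. Depth is unknown, so the number of peaks sets the precision.

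Starts were read as 1-based. Genes, exons and TSSs came from GENCODE 44 lifted to GRCh37. An intron was any base within a protein-coding transcript and outside the exons of all protein-coding genes, and the host was the gene of the longest such transcript. Intergenic peaks were outside protein-coding and long noncoding genes. Shares were compared by two-sided Fisher exact tests with Benjamini-Hochberg adjustment over 17 comparisons, 32 flanking bases or 14 elements, at 0.05. The work was done in Python 3.11.15 with scipy 1.17.1, pandas 2.3.3, numpy 2.4.6 and, for figures, matplotlib 3.10.9, and the functions were tested on simulated data.

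The members, the 13 gene lists (306 of 312 entries matched to genes of chromosomes 1 to 22) and the tests were chosen with earlier results of these data known. Named were the hosts of the 12 widest peaks outside repeat-like windows, the 12 hosts with most peaks and up to 4 hosts per list with the widest peak; further genes are named for sequences or, for WWTR1, to complete a list, and 1 list and a few named items are not reported here. The grouping of flanking bases, the copies of 31 bases and the comparisons with Fra-1-only peaks were added after the data were seen. So was the setting without peaks whose 31 bases were copied. Other settings varied the overlap, TSS distance, exon definition, element distance, width, GC content, repeats and neighbours.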

Additional observations from a re-analysis of the deposited data

How the results depend on the processing

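Over 24 results and 11 other settings, 228 values kept their side of the threshold, or for counts and shares without a test stayed close, and 28 did not. No called difference changed its direction. The flank difference from shared peaks passed in all 11 settings, with 16.9 to 25.7 percentage points, and the 12 single bases kept their direction in each, although 6 passed at 150 bp. With peaks of at least 200 bp there were 472 intronic Fra-2-only peaks, with 150 bp alone 506, and with windows of 40 to 55% GC 1047. By this construction, fewer had another such peak or a shared intronic one in the gene: 39.4%, 19.4% and 45.5%, and 49.1% with the element within 50 bp. Several elements against Fra-1-only peaks did not pass at 200 bp or more (-3.02 points) or 150 bp (-8.56 points). GC content against shared peaks passed with reciprocal overlap of 50% (3.99 points), from 200 bp (9.95 points) and at 150 bp (8.08 points). A host TSS within 10 kb did not pass against shared peaks beyond 5 kb of a TSS (2.85 points) or at 150 bp (0.501 points), nor against Fra-1-only peaks from 200 bp (2.46 points), at 150 bp (10.02 points) or in the GC band (8.28 points). Copied sequence against shared peaks did not pass at 150 bp (1.82 points). Of the other elements, 0 passed against shared peaks beyond 5 kb of a TSS, from 200 bp, at 150 bp and in the GC band, and 3 with 1 peak per 5 kb; against Fra-1-only peaks 0 passed with reciprocal overlap, from 200 bp, at 150 bp and in the GC band. Some of these settings held fewer peaks, but the cause of the changes was not tested. No paired analysis was possible because each antibody has 1 list. Without depth or heights, a peak absent from the Fra-1 list cannot be told apart from one just under the threshold.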
